A study of Mus musculus with 18 samples.

Results

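The genes described here encode the Fc gamma receptors of the mouse and the core of the signalling chain behind them. They were chosen by name, and all 10 of the 10 symbols were found among the 55487 rows of the count table. Fcgr1, Fcgr3 and Fcgr4 are the activating receptors and Fcgr2b is the inhibitory one. Fcer1g and Tyrobp are adaptor chains, Syk and Btk are kinases, Lcp2 is a scaffold, and Plcg2 is a phospholipase. All 10 passed the filter on low counts in each comparison.

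RNA of whole liver was sequenced from 18 male C57BL/6J mice, with 1 library per mouse and 6 mice per group. Every mouse had received an AAV8 vector with the hepatocyte promoter TBG 1 week before a diet of 16 weeks. CON-GFP mice received the GFP vector and a purified control diet. FPC-GFP mice received the GFP vector and a diet enriched in fructose, palmitate and cholesterol (FPC), with fructose and glucose in the drinking water. FPC-LIPA mice received the same FPC diet and a vector with human LIPA, the gene of lysosomal acid lipase. The mice were bought at 7 weeks of age. The table holds mouse genes, so neither transgene could be checked, and mouse Lipa stood at 208 to 309 CPM (counts scaled to library size) in CON-GFP, 235 to 406 in FPC-GFP and 243 to 391 in FPC-LIPA. The mouse whose column is numbered 37 carries the number 37b in its title.

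Total counts lay between 16632146 and 37739301 per library. In 3 FPC-LIPA livers (mice 36, 37 and 39) ribosomal protein genes took 6.22, 7.91 and 7.92% of the counts, against 1.35 to 2.78% in the other 15 livers. The gap on the log2 scale between the genes of the highest and the lowest GC quintile, relative to CON-GFP, was -1.08, -1.62 and -0.45 in mice 36, 37 and 39 and -0.81 to 0.79 in the other livers. That between the quintiles of longest and shortest genes was -0.95, -0.64 and -0.89 in the 3 livers and -0.14 to 0.45 in the others. Calls of FPC-LIPA against FPC-GFP are therefore also counted without these livers. The sample sheet numbers in the sample descriptions run from 55 to 68, except for CON-GFP mice 1 and 2, FPC-GFP mouse 20 and FPC-LIPA mouse 37.

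Fc gamma receptors bind the constant part of IgG on antibody-coated particles and are carried mainly by phagocytes and B cells. Activating receptors signal through an adaptor with an immunoreceptor tyrosine-based activation motif (ITAM), which Src kinases phosphorylate and to which Syk then binds. Syk acts through scaffolds such as Lcp2, and Btk and Plcg2 lead to calcium release, phagocytosis and cytokine production. Fcgr2b instead carries an inhibitory motif that recruits the phosphatase Inpp5d, and in liver it is known from sinusoidal endothelial cells.

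Of the 10 genes, 4 lie in one stretch of 276 kb on chromosome 1 (GRCm38, 170958617 to 171234365). In this stretch stand Fcgr2b, Fcgr4, Fcgr3 and Fcer1g, in this order. Fcgr1 lies on chromosome 3, Tyrobp on 7, Plcg2 on 8, Lcp2 on 11, Syk on 13 and Btk on X. Fcgr2b and Fcgr3 share 166 stretches of 50 bases, which is 9.58% of those of Fcgr3 and 2.92% of those of Fcgr2b, so reads from them could be divided between these genes. Fcgr1 and Fcgr4 share none with another Fc gamma receptor. Exons of Lcp2 overlap a gene on the opposite strand over 6.32% of their length and those of Fcgr2b over 2.68%, and reads from such overlaps cannot be told apart because the strand setting is not stated.

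Promoter sequence was taken from RefSeq (GRCm38.p6) as 250 bases before and 50 bases after each start site, and 9 of the 10 genes had an entry. Tyrobp had none. Upstream stretches of the 3 activating receptors and of their adaptor Fcer1g are shown, because these 4 genes rose together on the FPC diet and, of them, Fcer1g had a log2 fold change near 0 in FPC-LIPA against FPC-GFP. They hold no annotated exon and are written on the strand of the gene. Capitals mark GAGGAA on either strand, a form of the sequence bound by the myeloid factor PU.1, or TTCNNNGAA, the form of a STAT site. The marked sites do not overlap, and Fcer1g has neither of these forms. Shorter or other forms, such as GGAA alone, were not marked, so a stretch without capitals can still hold a binding site. Fcgr1 is chr3:96293970-96294219, Fcgr3 is chr1:171059404-171059626 and Fcer1g is chr1:171234366-171234599, all on the minus strand, and Fcgr4 is chr1:171018676-171018919 on the plus strand.
Fcgr1: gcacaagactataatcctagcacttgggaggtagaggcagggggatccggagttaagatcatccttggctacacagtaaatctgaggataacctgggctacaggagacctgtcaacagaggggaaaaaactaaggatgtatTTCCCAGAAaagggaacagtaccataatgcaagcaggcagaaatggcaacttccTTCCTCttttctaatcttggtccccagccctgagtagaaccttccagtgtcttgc
Fcgr3: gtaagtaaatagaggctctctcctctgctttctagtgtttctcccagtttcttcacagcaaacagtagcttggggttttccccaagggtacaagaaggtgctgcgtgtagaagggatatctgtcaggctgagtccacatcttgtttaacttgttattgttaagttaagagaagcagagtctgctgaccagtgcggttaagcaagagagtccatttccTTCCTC
Fcgr4: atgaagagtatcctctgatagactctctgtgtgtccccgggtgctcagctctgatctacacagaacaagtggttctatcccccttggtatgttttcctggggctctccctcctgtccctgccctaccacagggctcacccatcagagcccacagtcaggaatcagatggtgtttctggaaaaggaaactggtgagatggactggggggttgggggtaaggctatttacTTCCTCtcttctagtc
Fcer1g: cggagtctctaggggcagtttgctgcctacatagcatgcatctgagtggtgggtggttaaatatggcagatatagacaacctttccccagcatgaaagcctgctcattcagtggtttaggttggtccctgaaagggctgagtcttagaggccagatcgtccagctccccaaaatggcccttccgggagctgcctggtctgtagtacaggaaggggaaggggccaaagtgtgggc

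GAGGAA stood in a window of 6 of the 9 genes with an entry (Fcgr1, Fcgr3, Fcgr4, Lcp2, Syk and Btk) and in 28.3% of the 32851 promoter windows of all genes. It was not found in the windows of Fcgr2b, Fcer1g and Plcg2. Member genes are counted by any of their windows, and Fcgr3 and Syk had more than a single window. The shares of all genes are counted by window, so the shares are not alike. TTCNNNGAA stood in the window of Fcgr1 and in 8.30% of all windows.

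In control livers the levels, as CPM per kb of exon (mean ± SD, n = 6), were highest for the adaptors. Tyrobp stood at 19.2 ± 6.63 and Fcer1g at 9.60 ± 2.93. Fcgr2b followed at 8.82 ± 2.08, within the spread of Fcer1g, and was the highest of the receptors. Fcgr4 (3.72 ± 0.863) and Fcgr3 (3.15 ± 0.894) did not differ from each other beyond their spread, and Fcgr1 stood at 0.855 ± 0.419. Lcp2 (0.595 ± 0.0531), Syk (0.412 ± 0.111), Plcg2 (0.288 ± 0.167) and Btk (0.245 ± 0.104) were the lowest. The receptors came in the same order in FPC-GFP, at 9.14 ± 1.41 for Fcgr2b, 7.70 ± 0.944 for Fcgr4, 7.24 ± 1.28 for Fcgr3 and 2.39 ± 0.346 for Fcgr1. In FPC-LIPA livers Fcgr3 (18.4 ± 7.44) and Fcgr4 (15.5 ± 2.63) had means above that of Fcgr2b (10.4 ± 1.94). This order did not hold in every liver. Fcgr3 was below Fcgr2b in mouse 33 (9.64 against 12.1) and Fcgr4 in mouse 31 (11.4 against 12.2). Fcgr3 was furthest above Fcgr2b in mice 36, 37 and 39 (22.5 against 8.25, 30.4 against 8.54 and 19.8 against 9.21).

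**Figure D1:**
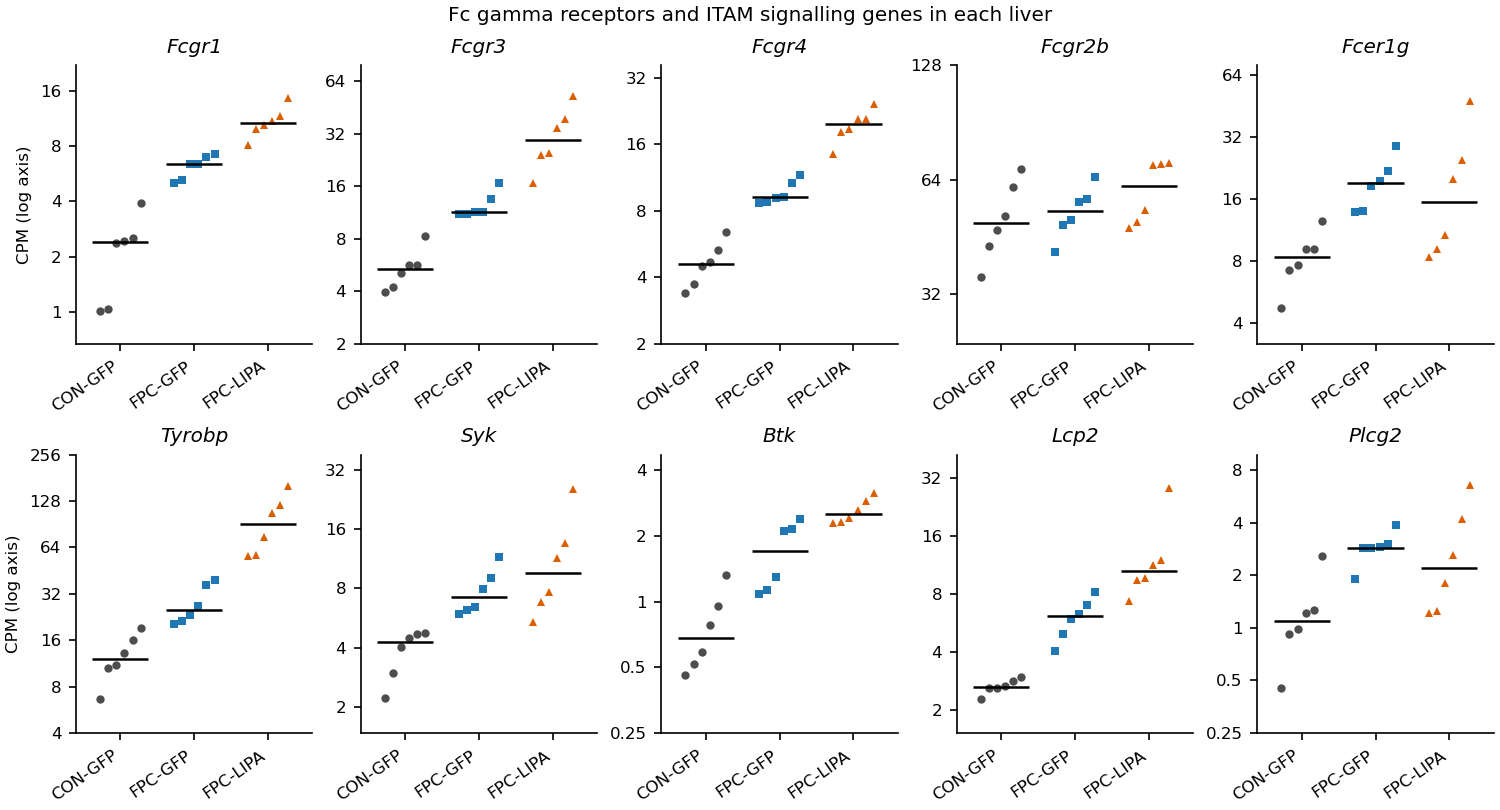
Level of each gene (CPM scaled by TMM, log axis) in the 6 livers of each group, with 1 point per mouse ordered by value and the median as a line. Fcgr2b lay between 35.5 and 70.9 CPM in all 18 livers, while Tyrobp was higher in every FPC-LIPA liver (56.3 CPM or more) than in every FPC-GFP liver (39.6 CPM or less).

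The comparison of FPC-GFP with CON-GFP addresses the effect of the FPC diet. On this diet 9 of the 10 genes rose by 2-fold or more and Fcgr2b did not. Genes count as differentially expressed (DE) where the adjusted p is under 0.05 and the change is 2-fold or more (edgeR quasi-likelihood test, Benjamini-Hochberg adjustment over 14307 genes), and 4.76% of all genes tested were DE and higher. In 7 of the 10 genes every FPC-GFP liver was above every CON-GFP liver, which held for 5.61% of all genes. In whole liver, more cells of a type and more RNA per cell cannot be told apart.

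Fcgr1, the high-affinity IgG receptor, stood at 1.01 to 3.91 CPM (median 2.40) in CON-GFP and at 5.005 to 7.21 CPM (median 6.37) in FPC-GFP. The groups did not overlap, and the log2 fold change was 1.47 ± 0.27 (SE, adjusted p = 0.00196). Fcgr3, which binds immune complexes with low affinity, went from 3.94 to 8.29 CPM (median 5.37) to 11.1 to 16.7 CPM (median 11.4), again with no overlap. Its log2 fold change was 1.2 ± 0.18 (adjusted p = 4.91e-04). Fcgr4, a receptor of IgG2a and IgG2b, stood at 3.40 to 6.38 CPM (median 4.57) in CON-GFP and at 8.63 to 11.6 CPM (median 9.18) in FPC-GFP. These groups did not overlap either, and the log2 fold change of 1.05 ± 0.16 (adjusted p = 5.62e-04) was just above the 2-fold minimum. It was 0.98 without CON-GFP mouse 1 and 0.99 without CON-GFP mouse 7.

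Fcgr2b, the inhibitory receptor, stood at 35.5 to 68.4 CPM (median 49.3) in CON-GFP and at 41.2 to 64.9 CPM (median 52.9) in FPC-GFP. The groups overlapped almost throughout. Its log2 fold change was 0.05 ± 0.16 with a 95% interval from -0.28 to 0.38 (adjusted p = 0.825), so a 2-fold rise lay outside the interval.

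Both adaptors rose. Fcer1g, the common gamma chain on which the surface expression of the activating receptors depends, went from 4.73 to 12.5 CPM (median 8.38) to 13.8 to 29.1 CPM (median 19.1). The groups did not overlap and the log2 fold change was 1.21 ± 0.21 (adjusted p = 0.00148). Tyrobp, the chain of Trem2 and other myeloid receptors, went from 6.67 to 19.3 CPM (median 12.1) to 20.4 to 39.6 CPM (median 25.1), also without overlap. Its log2 fold change was 1.13 ± 0.23 (adjusted p = 0.00352), and 1.00 without CON-GFP mouse 1, just under the minimum.

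Behind the adaptors, Syk had a log2 fold change of 1.02 ± 0.21 (adjusted p = 0.00343), from 2.21 to 4.74 CPM in CON-GFP to 5.96 to 11.5 CPM in FPC-GFP. Lcp2 changed by 1.19 ± 0.17 (adjusted p = 4.71e-04), from 2.27 to 2.97 CPM to 4.01 to 8.19 CPM. In both genes the groups did not overlap. Btk, a kinase that activates phospholipase C gamma, was low, at 8 to 40 counts per library in CON-GFP, and rose by 1.12 ± 0.30 (adjusted p = 0.0164). Plcg2, which cleaves PIP2 into calcium-releasing messengers, rose by 1.2 ± 0.30 (adjusted p = 0.0110) from a level of 7 to 78 counts per library in CON-GFP. CON-GFP mouse 8 was the highest control for both, at 1.33 CPM of Btk and 2.58 CPM of Plcg2, and overlapped with FPC-GFP.

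Some of these calls depended on single livers. Syk fell under the 2-fold minimum without CON-GFP mouse 1 (0.96) or mouse 2 (0.92) and without FPC-GFP mouse 12 (0.98) or mouse 19 (0.89), and 6 genes were DE without CON-GFP mouse 1. Within the libraries of sample sheet numbers 55 to 68, which leave out CON-GFP mice 1 and 2 and FPC-GFP mouse 20, 5 genes were DE. Calls over all genes, in either direction, were 918 of 14495 without CON-GFP mouse 1. They were 767 of 14640 within these sheet numbers and 1030 of 14307 with all livers.

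**Figure D2:**
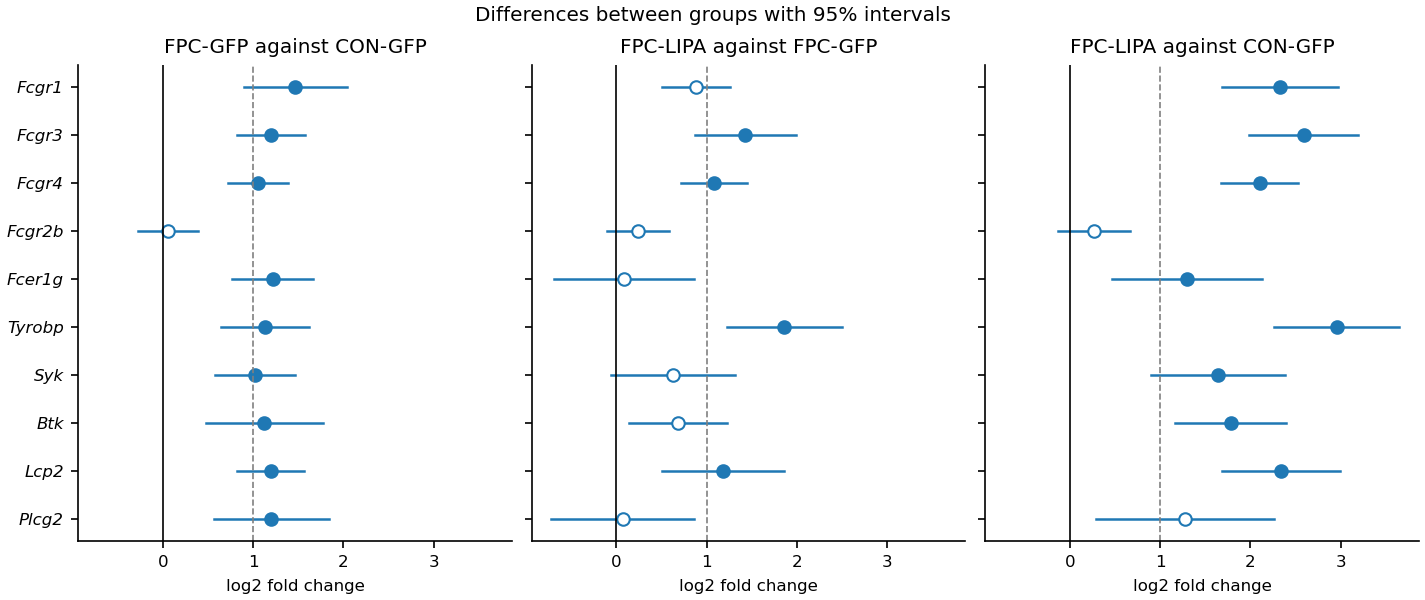
Log2 fold change of each gene in the 3 comparisons (points) with its 95% interval (lines) from edgeR. Filled points are DE, the dashed line is a 2-fold rise, and the interval of Fcgr2b stays under it in every comparison.

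The comparison of FPC-LIPA with FPC-GFP addresses the effect of LIPA on the FPC diet, and it shares its FPC-GFP livers with the comparison above. With all 6 livers of each group, Fcgr3, Fcgr4, Tyrobp and Lcp2 rose further, with 4 of 10 DE and higher against 10.3% of all 14620 genes tested, and every FPC-LIPA liver was above every FPC-GFP liver for 4 of 10 genes (Fcgr1, Fcgr3, Fcgr4 and Tyrobp) against 3.36% of all genes. At the adjusted p alone, Fcgr1 was also higher, which makes 5 of 10 against 14.4% of all genes. Fcer1g, Plcg2 and Fcgr2b had log2 fold changes of 0.09, 0.07 and 0.24 that did not pass the test.

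Without the 3 FPC-LIPA livers of high ribosomal share, Tyrobp alone was DE (1 of 10, against 0.728% of 15246 genes), with 3 FPC-LIPA livers against 6. The log2 fold changes of the 10 genes then lay between 0.42 for Fcgr2b and 1.18 for Tyrobp. All 10 had an unadjusted p under 0.05 (edgeR), as did 2817 of the 15246 genes tested. The log2 fold changes of Fcgr3, Fcgr4 and Lcp2 were then 0.81, 0.83 and 0.77 with adjusted p of 0.0440, 0.0279 and 0.111. Without mouse 37 alone 2 genes were DE, Fcgr3 and Tyrobp, and within sample sheet numbers 55 to 68 the count was also 2. Calls over all genes, in either direction, were 902 of 14824 and 96 of 14736 in these fits. With all livers they were 1671 of 14620. The part of the ribosomal share, GC content and length in these results was not tested beyond these fits and those with the trends removed.

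Among the activating receptors, Fcgr3 stood at 24.8, 16.7, 24.3, 39.1, 52.8 and 34.4 CPM in FPC-LIPA mice 31, 33, 34, 36, 37 and 39. The lowest of these was just above the highest FPC-GFP liver (16.7335 against 16.6944 CPM). The log2 fold change was 1.43 ± 0.26 (adjusted p = 0.0110). Fcgr4 was more even, at 14.4, 18.1, 18.7, 20.8, 24.3 and 20.8 CPM in the same order, and changed by 1.08 ± 0.17 (adjusted p = 0.00842). It fell under the 2-fold minimum without mouse 37 (0.97), with library size alone (0.89), within sample sheet numbers 55 to 68 (0.96), with length trends removed (0.73) and with length and GC trends removed (0.63). Fcgr1 stood at 8.12 to 14.6 CPM (median 10.7), above all FPC-GFP livers, but at a log2 fold change of 0.88 ± 0.18 (adjusted p = 0.0124) it was under the 2-fold minimum.

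Fcgr2b stood at 70.9, 70.1, 70.3, 47.7, 49.5 and 53.3 CPM in mice 31, 33, 34, 36, 37 and 39, so mice 36, 37 and 39 lay within the FPC-GFP range of 41.2 to 64.9 CPM and the other 3 above it. The 95% interval of its log2 fold change was from -0.10 to 0.58 (adjusted p = 0.272).

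Over all 6 livers the log2 fold changes of the adaptors were far apart. Tyrobp stood at 56.3, 74.2, 57.1, 106, 160 and 121 CPM in mice 31, 33, 34, 36, 37 and 39, and its log2 fold change was 1.86 ± 0.30 (adjusted p = 0.00844). It was 1.18 (adjusted p = 0.0279) without mice 36, 37 and 39 and 1.23 with length trends removed. Fcer1g stood at 20.1, 47.8, 24.6, 9.11, 8.33 and 10.7 CPM in the same order. Its level was above all FPC-GFP livers in mouse 33, within their range of 13.8 to 29.1 CPM in mice 31 and 34, and below all of them in mice 36, 37 and 39. The log2 fold change of 0.09 ± 0.37 had a 95% interval from -0.69 to 0.87 (adjusted p = 0.877). It was -0.37 without mouse 33, and 0.68 (adjusted p = 0.214) without mice 36, 37 and 39.

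The ratio of Tyrobp to Fcer1g counts within a library does not depend on scaling. It was 0.869 to 2.23 in CON-GFP and 1.26 to 1.66 in FPC-GFP. In FPC-LIPA it was 2.80, 1.55 and 2.32 in mice 31, 33 and 34 and 11.7, 19.3 and 11.3 in mice 36, 37 and 39. Tyrobp has 667 bases of exon and 54.8% GC, and Fcer1g has 874 bases and 51.8% GC. Both fall in the quintile of shortest genes, whose median log2 fold change was 0.49 in FPC-LIPA against FPC-GFP. In GC content both fall in quintile 4, with a median of -0.20. The part of length and GC content in the ratio was not tested.

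**Figure D3:**
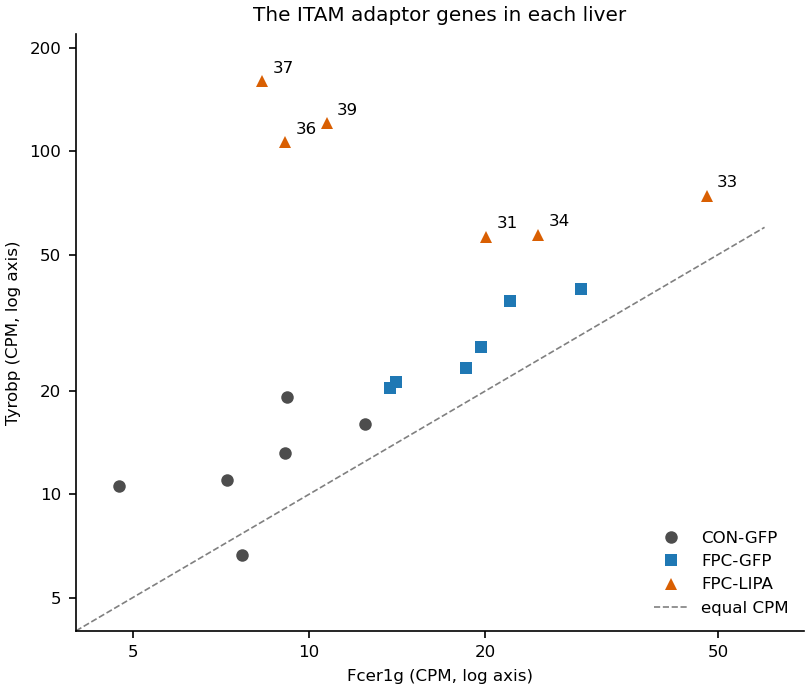
Tyrobp against Fcer1g in each of the 18 livers (CPM, log axes), with FPC-LIPA points labelled by mouse and the line of equal CPM dashed. CON-GFP and FPC-GFP livers lie near the line and mostly above it, at ratios of 0.869 to 2.23 and 1.26 to 1.66. FPC-LIPA mice 36, 37 and 39 lie far above the line, with 106 to 160 CPM of Tyrobp and 8.33 to 10.7 CPM of Fcer1g.

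Of the downstream genes, Syk and Plcg2 did not pass the test and were lowest in mice 36, 37 and 39, as Fcer1g was. Syk stood at 11.4, 25.6, 13.6, 7.63, 6.82 and 5.4 CPM in mice 31, 33, 34, 36, 37 and 39, with the highest value in mouse 33 and mice 36, 37 and 39 within or below the FPC-GFP range. Its log2 fold change was 0.63 ± 0.32 (adjusted p = 0.155) with an interval from -0.06 to 1.31. Plcg2 stood at 2.61, 6.54, 4.20, 1.25, 1.79 and 1.21 CPM in that order, and its change of 0.07 ± 0.37 had an interval from -0.72 to 0.86 (adjusted p = 0.902). The values without mice 36, 37 and 39 were 1.12 for Syk (adjusted p = 0.0611) and 0.64 for Plcg2 (adjusted p = 0.246).

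Lcp2 stood at 7.36, 12.0, 11.3, 9.43, 28.2 and 9.68 CPM, again in that order, against 4.01 to 8.19 CPM in FPC-GFP. It rose by 1.18 ± 0.32 (adjusted p = 0.0239), and by 0.75 ± 0.20 without mouse 37, which was under the minimum. Its adjusted p was 0.0545 without FPC-GFP mouse 11 and 0.0526 without FPC-GFP mouse 13. Btk stood at 2.30 to 3.15 CPM (median 2.53), overlapping with 1.09 to 2.38 CPM in FPC-GFP, and its log2 fold change of 0.68 ± 0.25 had an interval from 0.14 to 1.22 (adjusted p = 0.0635).

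Against CON-GFP, 8 of the 10 genes were DE and higher in FPC-LIPA livers (11.8% of 14433 genes) and 7 of 10 did not overlap (5.58% of all genes). This comparison shares livers with both others. The log2 fold changes were 2.96 ± 0.33 for Tyrobp, 2.59 ± 0.29 for Fcgr3, 2.34 ± 0.31 for Lcp2, 2.33 ± 0.30 for Fcgr1 and 2.1 ± 0.20 for Fcgr4. Btk (1.78 ± 0.29), Syk (1.64 ± 0.35) and Fcer1g (1.30 ± 0.39) changed less. Plcg2 (1.27 ± 0.46, adjusted p = 0.0582) and Fcgr2b (0.27 ± 0.19, adjusted p = 0.299) did not pass the test. The call of Fcer1g was lost without CON-GFP mouse 1, 2, 3 or 7 or FPC-LIPA mouse 33, and Plcg2 passed without CON-GFP mouse 8 or FPC-LIPA mouse 36 or 39. Without mice 36, 37 and 39 it was 9 of 10 against 8.8% of all genes, with Fcer1g at 1.90, Plcg2 at 1.84 and Fcgr2b at 0.48.

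Per kb of exon, the summed counts of Fcgr1, Fcgr3 and Fcgr4 relative to Fcgr2b were 0.721 to 1.10 (median 0.878) in CON-GFP, 1.59 to 2.29 (median 1.89) in FPC-GFP and 2.34 to 6.27 (median 3.52) in FPC-LIPA. The 3 groups did not overlap. In FPC-LIPA the ratio was 2.43, 2.34 and 2.75 in mice 31, 33 and 34 and 5.42, 6.27 and 4.29 in mice 36, 37 and 39. Fcgr3 and Fcgr4 fall in the quintile of shortest genes, whose median log2 fold change was 0.49 in FPC-LIPA against FPC-GFP. Fcgr2b falls in length quintile 4, with a median of -0.08. The part of gene length in this ratio was not tested.

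**Figure D4:**
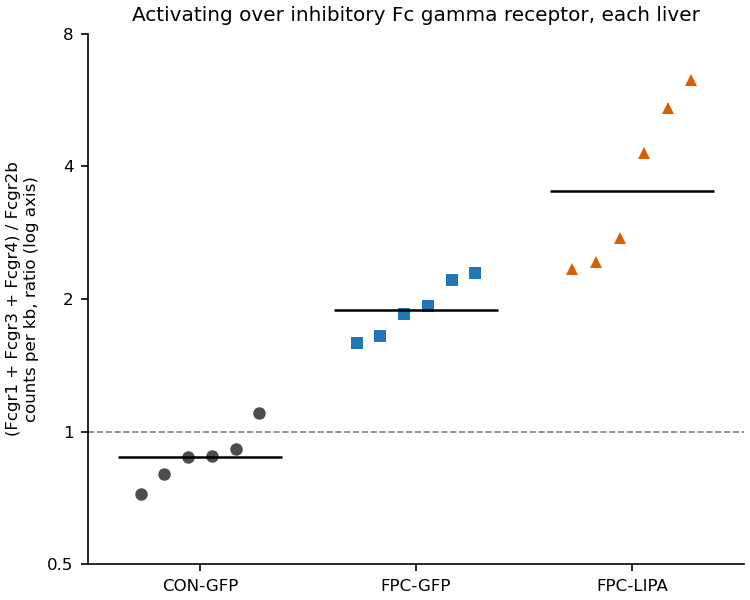
Ratio of activating receptor counts (Fcgr1, Fcgr3 and Fcgr4 summed) to Fcgr2b counts, each per kb of exon (log axis), with 1 point per mouse, the median as a line and a ratio of 1 dashed. The ratio reached 1.10 at most in CON-GFP, 1.59 to 2.29 in FPC-GFP and 2.34 or more in FPC-LIPA.

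Over the 18 livers, log2 CPM of Fcgr3, Fcgr4 and Tyrobp varied together, with Pearson's r of 0.968 to 0.972 between pairs. Fcer1g was closest to Plcg2 (r = 0.944) and Syk (r = 0.904) among these genes, and its r with Tyrobp was 0.381 and with Fcgr3 0.349. Of all genes tested, Tyrobp was most like Cd300a (0.984), Lyz2 (0.984) and Igsf6 (0.983). Fcer1g was most like Laptm5 (0.966), Csf1r (0.965) and Pld4 (0.963), and Fcgr2b had weaker likeness, with Dusp2 (0.830), Arhgap19 (0.825) and Snn (0.818) first. The 18 points share groups, depth and the ribosomal and GC differences named above, so these values are descriptions.

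Genes of the IgG ligands were scarce in liver RNA, and 0 of 2 tested on the diet and 0 of 1 with LIPA were DE by edgeR, with 0 at an unadjusted p under 0.05 and 0 by DESeq2. The 4 IgG heavy chain genes together stood at 0.753 to 2.34 CPM in CON-GFP, 0.526 to 2.15 in FPC-GFP and 0.475 to 2.65 in FPC-LIPA. The highest, Ighg2b, had log2 fold changes of -0.14 on the diet and -0.03 with LIPA (adjusted p = 0.815 and 0.972). Among 8 other immunoglobulin chains, Jchain (1.77 ± 0.53, adjusted p = 0.0328) and Iglc2 (1.47 ± 0.50, adjusted p = 0.0484) rose in FPC-LIPA, 2 of 7 tested, and Ighm, the highest, had values of -0.36 and 0.38 (adjusted p = 0.255 and 0.356). Of 12 other Fc receptors, Pigr, the epithelial carrier of IgA, was the highest and fell on the diet by 1.5 on the log2 scale (± 0.20, adjusted p = 3.17e-04), from 629 to 1054 CPM in CON-GFP to 199 to 462 CPM in FPC-GFP. The B cell gene Fcrla was the 1 of 7 tested that rose in FPC-LIPA, by 1.32 ± 0.35 (adjusted p = 0.0233). Without mice 36, 37 and 39, 0 of 7 other immunoglobulin chains and 0 of 7 other Fc receptors were DE by edgeR, with 5 and 2 at an unadjusted p under 0.05.

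A list of 23 other receptors and adaptors signals through ITAM chains. On the diet 2 of 14 tested rose, Pira2 (1.72 ± 0.42) and Trem2 (1.43 ± 0.39), with a group median of 0.62 against 0.01 over all genes. In FPC-LIPA against FPC-GFP 12 of 18 tested rose, with a median of 1.67 against 0.04. Siglech and Clec4e, which are among the 12, did not pass the filter on low counts on the diet. They entered here through the FPC-LIPA livers, where they were higher. The count and the median are therefore not of the same genes as on the diet. Clec7a, the beta-glucan receptor Dectin-1, stood at 2.83 to 13.0 CPM in FPC-GFP and at 12.1 to 144 CPM in FPC-LIPA and rose by 3.47 ± 0.55 (adjusted p = 0.00842). Siglech, a receptor of plasmacytoid dendritic cells, stood at 0.0925 to 0.368 CPM in FPC-GFP and at 0.417 to 3.01 CPM in FPC-LIPA and rose by 2.42 ± 0.56. Clec4e, the receptor Mincle that pairs with Fcer1g, stood at 0.0622 to 0.481 CPM in FPC-GFP and at 0.320 to 2.12 CPM in FPC-LIPA and rose by 2.18 ± 0.57. Without mice 36, 37 and 39, 2 of 19 tested were DE, Clec7a and Clec4n (the latter named after its values were seen), and the median was 1.16.

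Of 12 Src and Tec family kinases, which phosphorylate the ITAM and act beside Btk, the myeloid kinase Fgr rose on the diet (1.48 ± 0.29, adjusted p = 0.00290). Zap70, the T cell counterpart of Syk, went from 12.8 to 15.0 CPM in CON-GFP to 0.644 to 2.93 CPM in FPC-GFP. It was the 1 of 9 tested that fell, by 3.13 on the log2 scale (± 0.29, adjusted p = 4.65e-05). In CON-GFP Zap70 alone stood above the 8 T cell markers summed (3.69 to 5.90 CPM), and the cells that carry it were not tested. Lyn, the highest, had a log2 fold change of 0.25 ± 0.09 on the diet (adjusted p = 0.0464), under the minimum. In FPC-LIPA livers Yes1 was the 1 of 11 that rose (1.21 ± 0.39, adjusted p = 0.0400), a share near the 10.3% of all genes, while Fgr had a value of 0.33 (adjusted p = 0.565). Of 12 kinases tested without mice 36, 37 and 39, 0 were DE by edgeR, with 5 at an unadjusted p under 0.05.

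Of 33 scaffolds and effectors, 5 of 32 tested rose on the diet, led by Rac2 (1.41 ± 0.24), Pik3cg (1.27 ± 0.35) and Fyb (1.21 ± 0.23), a GTPase, a lipid kinase and an Lcp2 partner. In FPC-LIPA 4 of 32 rose, a share near the 10.3% of all genes, led by Wipf1 (1.45 ± 0.39), Lat2 (1.38 ± 0.30) and Pik3r5 (1.37 ± 0.46), and Rac2 stood at 0.35 ± 0.55 (adjusted p = 0.660). The group medians were 0.44 and 0.25. Rac1, the most abundant of them, had log2 fold changes of 0.02 and 0.17 (adjusted p = 0.919 and 0.523). Of 32 tested without mice 36, 37 and 39, 0 were DE by edgeR, with 16 at an unadjusted p under 0.05.

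Of 26 inhibitors of ITAM signalling, 7 of 23 tested rose on the diet, led by the inhibitory receptors Siglece (1.79 ± 0.26), Cd300a (1.27 ± 0.24) and Clec12a (1.13 ± 0.21). In FPC-LIPA 5 of 23 rose, led by Clec4a2 (2.19 ± 0.42), Clec12a (1.69 ± 0.23) and Cd300a (1.57 ± 0.26). The group medians were 0.76 and 0.60. Ptpn11, a phosphatase and the highest of the group, was lower in FPC-LIPA at a log2 fold change of -0.77 ± 0.19 (adjusted p = 0.0198), under the 2-fold minimum. Of 24 tested without mice 36, 37 and 39, 3 were DE and higher.

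Markers of Kupffer cells, of macrophages and of leukocytes as a whole rose in part. On the diet 6 of 8 Kupffer cell, 6 of 9 monocyte and macrophage, 6 of 8 lipid-associated macrophage and 2 of 6 pan-leukocyte markers rose. In FPC-LIPA against FPC-GFP the counts were 5 of 10 for monocytes and macrophages, 5 of 8 for lipid-associated macrophages and 3 of 6 for pan-leukocyte markers. Cd163 was the 1 of 8 Kupffer cell markers that was DE there, and it fell. Of the 2 most abundant markers in each of these lists, Lyz2 (log2 fold change 1.88), Lpl (1.79) and Cd52 (1.37) were DE and higher there. Cd5l (0.92) and Slc40a1 (0.82) rose by less than 2-fold (adjusted p = 0.0235 and 0.0484, edgeR). Csf1r (-0.13), Spp1 (0.36) and Laptm5 (0.18) did not pass the test (adjusted p = 0.808, 0.528 and 0.725, edgeR). Summed monocyte and macrophage markers stood at 58.4 to 129 CPM in CON-GFP, 158 to 418 in FPC-GFP and 474 to 822 in FPC-LIPA. For Kupffer cells the sums were 269.8 to 394, 438 to 720.0 and 644 to 1095 CPM, for lipid-associated macrophages 48.7 to 83.1, 131 to 301 and 211 to 671 CPM, and for pan-leukocyte markers 28.4 to 50.3, 51.7 to 97.8 and 94.96 to 195 CPM. Without mice 36, 37 and 39, 2 of 10 monocyte and macrophage and 2 of 6 pan-leukocyte markers were DE in the LIPA comparison, all higher. Of Kupffer cell markers 1 of 8 was then DE, Cd5l, which was higher. Of lipid-associated macrophage markers 0 of 8 were DE, with 5 at an unadjusted p under 0.05 (edgeR). Trem2 and Laptm5 stand in a pathway list and in a marker list. The part of these cells in the results was not tested.

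Relative to Ptprc, the pan-leukocyte phosphatase CD45, Tyrobp counts were 1.41 to 2.87 in CON-GFP, 2.49 to 4.32 in FPC-GFP and 2.32 to 8.71 in FPC-LIPA. Fcer1g counts relative to Ptprc were 0.629 to 2.01 in CON-GFP and 1.68 to 2.604 in FPC-GFP. In FPC-LIPA they were 1.26, 2.40, 1.08, 0.475, 0.120 and 0.773 in mice 31, 33, 34, 36, 37 and 39. Mouse 37 had the highest Ptprc level, at 69.2 CPM, against 13.9 to 22.8 CPM in the other 5 FPC-LIPA livers.

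Lymphoid and granulocyte markers were low, and on the diet 0 of 5 B cell, 0 of 2 neutrophil, 0 of 4 plasma cell and 0 of 1 NK cell markers tested were DE by edgeR or DESeq2, with 1 of these, a plasma cell marker, at an unadjusted p under 0.05. Neutrophil markers summed to 1.06 to 2.38 CPM in CON-GFP, 0.965 to 2.88 in FPC-GFP and 3.53 to 17.4 in FPC-LIPA, with S100a8 and S100a9 the 2 tested and both DE in FPC-LIPA, and Ly6g at 0 counts in CON-GFP and FPC-LIPA and Camp in CON-GFP. B cell markers summed to 3.57 to 11.5, 1.81 to 15.4 and 10.1 to 28.9 CPM in the same order, with 3 of 8 tested DE in FPC-LIPA. NK cell markers summed to 1.30 to 3.69, 1.74 to 3.59 and 3.77 to 13.4 CPM, with 2 of 2 tested DE in FPC-LIPA. T cell markers summed to 3.69 to 5.90, 2.40 to 5.37 and 4.46 to 10.9 CPM, with Cd4 lower on the diet (1 of 5) and 1 of 6 higher in FPC-LIPA. More B cell, NK cell and T cell markers passed the filter on low counts with LIPA than on the diet. Their counts can therefore include genes that passed only through the FPC-LIPA livers. Without mice 36, 37 and 39, 0 of 3 neutrophil, 0 of 8 B cell, 0 of 3 NK cell and 0 of 8 T cell markers were DE in FPC-LIPA by edgeR, with 1, 8, 2 and 3 at an unadjusted p under 0.05.

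Markers of mast cells and basophils summed to 4.74 to 12.0 CPM over all livers, with Mcpt8 at 0 counts in every group and Fcer1a in CON-GFP and FPC-GFP. Those of platelets summed to 3.24 to 7.78 CPM. Kit, the highest mast cell marker, had log2 fold changes of 0.36 and 0.01 on the diet and with LIPA (adjusted p = 0.228 and 0.969), and Itga2b, the highest platelet marker, 0.08 and 0.54 (adjusted p = 0.784 and 0.141). Of the 2 tested in each list 0 were DE in either comparison by edgeR or DESeq2, with 1 platelet marker at an unadjusted p under 0.05 in FPC-LIPA. Plasma cell markers summed to 162 to 486 CPM, mostly Xbp1 and Sdc1, so the sum follows these genes, whose cell source was not tested. Xbp1 was lower in FPC-LIPA at -0.79 (adjusted p = 0.0385, edgeR), under the 2-fold minimum, and Sdc1 had -0.42 (adjusted p = 0.148, edgeR). Jchain, at 0.929 to 9.62 CPM in FPC-LIPA, was the 1 of 4 tested that was DE there. Without mice 36, 37 and 39 it was 0 of 4 (1 at an unadjusted p under 0.05, edgeR).

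Sinusoidal endothelial markers, beside which Fcgr2b is usually found, summed to 189 to 295 CPM in CON-GFP, 246 to 315 in FPC-GFP and 310 to 481 in FPC-LIPA. Stab2 had log2 fold changes of -0.08 on the diet and -0.02 with LIPA (adjusted p = 0.663 and 0.957), and Clec4g 0.20 and 0.61 (adjusted p = 0.350 and 0.0651). Bmp2 was the 1 of 8 markers that was DE in FPC-LIPA, with 0 of 8 without mice 36, 37 and 39 (3 at an unadjusted p under 0.05, edgeR). On the diet 0 of 8 were DE by edgeR and 0 by DESeq2, with 4 at an unadjusted p under 0.05. Hepatocyte markers summed to 76336 to 108420.0 CPM in CON-GFP, 65882 to 91704 in FPC-GFP and 53031 to 79520 in FPC-LIPA, and Alb had values of -0.15 and -0.23 (adjusted p = 0.466 and 0.387). Of 7 tested, 0 were DE in either comparison by edgeR or DESeq2, with 3 at an unadjusted p under 0.05 on the diet and 1 with LIPA.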

How the data were processed

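RNA of 18 mouse livers (3 groups of 6) was analysed from the raw counts per gene that the authors deposited. They trimmed the reads with Trimmomatic, mapped them to GRCm38 (mm10) with HISAT2 2.1.0 and counted them with Feature Counts of Subread, with strand and multi-mapping settings not given in the sources used here. The library kit is named as either of a pair, unstranded or stranded. Of 23 columns, 18 were matched to samples by condition and mouse number and 5 were not used.

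Here, filterByExpr, TMM scaling and the quasi-likelihood test of edgeR 4.0.16 (R 4.3.3) were run on the 12 libraries of each comparison, with Benjamini-Hochberg adjustment over all genes tested. DE genes have an adjusted p under 0.05 and a change of 2-fold or more in either direction. SE is the log2 fold change divided by the square root of F. Libraries of a group differed beyond counting noise (chi-square per degree of freedom from 15.4 to 591). Exon lengths and GC content came from GENCODE M21. The fits were tested on simulated data. Alternatives used DESeq2 1.42.0, limma 3.58.1, other filters, scalings and sample sets. Removal of GC trends and omission of libraries with over 6% ribosomal protein reads were chosen after seeing the data. Python 3.11.15 with pandas 2.3.3, numpy 2.4.6 and matplotlib 3.10.9 made tables and figures.

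All 10 genes were named. Of each of 7 pathway lists the naming rule took the most abundant gene. It also took up to 3 DE genes of largest change in the diet and in the LIPA comparison. Of each of 13 marker lists it took the 2 most abundant genes. Of these, Cd79b, Cd22, Klrk1, Gzma, Lck, Hdc, Pf4 and Apoa1 are not described above. Genes of greatest likeness were taken for Fcer1g, Tyrobp and Fcgr2b. Other genes were named after their values were seen, where a count was small. A gene that this rule names is not reported here. Genes and lists were chosen with earlier results of these data known.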

Additional observations from a re-analysis of the deposited data

Results flagged for a closer look

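Of 36 sets of 6 livers examined for a single distant value, 1 was marked, and chance marks about 1 in 20. Lcp2 stood at 28.2 CPM in FPC-LIPA mouse 37, against 7.36 to 12.0 CPM in the other 5 FPC-LIPA livers. The gap was 0.776 of the range of the group, above Dixon's critical value for 6 samples. The same liver had the highest Ptprc (69.2 CPM), a ribosomal share of 7.91% and a sample sheet number outside the run of 64 to 68 of the other FPC-LIPA livers. Their part in the Lcp2 value was not tested.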

How the results depend on the processing

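No paired analysis was possible because the groups share no mouse numbers. Fits that leave out libraries by ribosomal share or remove GC trends were chosen after seeing the data. On the diet 9 genes were DE, 5 with sample sheet numbers 55 to 68 alone and 6 to 9 with 1 liver left out. Over all genes, in either direction, these fits gave 1030, 767 and 857 to 1148 calls. With LIPA 4 were DE, and 2 with library size alone, with sheet numbers 55 to 68, without FPC-LIPA mouse 37 or at an adjusted p under 0.01. The count was 1 without the libraries of over 6% ribosomal reads, and 2 to 4 with 1 liver left out. Over all genes, in either direction, 1671 calls became 1016, 96, 902, 53 and 116 in the named settings, in that order. With 1 liver left out they were 856 to 2612. Against CON-GFP 8 FPC-LIPA calls became 7 to 9 with 1 liver left out. Fcgr2b on the diet turned to -0.0314 with sheet numbers 55 to 68 and ranged from -0.0338 to 0.16 with 1 liver left out. Fcer1g with LIPA was -0.15 with limma-trend, -0.60 with length trends removed, -0.0283 with GC trends removed, -0.52 with both removed and -0.37 to 0.23 with 1 liver left out. Plcg2 with LIPA was -0.17 with limma-trend, -0.0789 with length trends removed and -0.34 to 0.23 with 1 liver left out. Syk with LIPA was 1.03 (adjusted p = 0.0188, limma) with length and GC trends removed. The call of Fcer1g against CON-GFP was lost in 9 alternatives, among them those without CON-GFP mouse 1, 2, 3 or 7 or FPC-LIPA mouse 33. Plcg2 on the diet missed the threshold with 18 libraries in 1 fit (adjusted p = 0.0594, edgeR), and against CON-GFP it passed in 8 alternatives. The causes were not tested. Counts as low as 7 per library limit Btk and Plcg2.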
